A study of Homo sapiens with 64 samples.

Results

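The genes described here encode the vasoconstrictor peptide endothelin-1 (EDN1), an enzyme that makes it (ECE1), a receptor that binds it (EDNRA), and 3 vascular growth factors of the VEGF family (VEGFB, VEGFC and PGF). A probe set is a group of short array probes that report 1 transcript. Every probe set whose platform annotation names a single gene symbol, and that symbol 1 of these 6, was taken. That gave 9 probe sets for 5 genes, out of 41091 probe sets for 19775 genes. EDN1 had 3, ECE1 and PGF 2 each, and VEGFB and VEGFC 1 each. No probe set with a single symbol named EDNRA. The 1801 probe sets with several symbols were left out without a search for it, so EDNRA was not analysed here. All 9 were kept, with no filter on low signal. EDN1 and VEGFC had been chosen by their signal with indacaterol against vehicle at 1 and 2 h. EDN1 was higher at both times, and VEGFC at 2 h but not at 1 h. That contrast is therefore given as a description, with no test. No threshold was used to choose members, so none lies just inside or outside one.

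The cells were BEAS-2B, an immortalised human airway epithelial line, grown in serum-free keratinocyte medium with epidermal growth factor and pituitary extract and then kept in the plain medium for a day. The groups were indacaterol and GSK 256066 together (10 nM each), 10 nM indacaterol alone, 10 nM GSK 256066 alone, and vehicle, each for 1, 2, 6 or 18 h, with 4 arrays in each of the 16 groups. Indacaterol is a long-acting agonist of the β2-adrenoceptor, which raises cyclic AMP (cAMP), and GSK 256066 inhibits phosphodiesterase 4 (PDE4), which degrades it. The design addresses the effect of each drug alone and of the pair, in 1 labelled cell line and at 1 dose of each drug. Whether replicates were grown as separate cultures is not stated in the labels, and the p-values measure the spread between these samples alone.

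Endothelin-1 is made as a long precursor, cut first by furin-type proteases and then by endothelin-converting enzymes, and acts on 2 receptors coupled to G proteins. It is best known as a product of endothelium that contracts smooth muscle, and airway epithelium also secretes it, next to airway smooth muscle. VEGFC acts mainly on the receptor FLT4 and drives growth of lymphatic vessels, whereas VEGFB and PGF bind FLT1.

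Median signal per array ran from 101.2 to 127.4 intensity units. The 16 arrays of replicate 3, 1 in each group, stood apart from the other 48: KRT14, a basal keratin, lay between 265800 and 419700 in them and between 15.1 and 35.3 in the others, and KRT5, KRT19 and CDH1 were also higher in all of them. The labels name BEAS-2B for these arrays as for the others and do not say what a replicate number marks, and the identity of the replicate 3 cells was not tested. Since each group holds 1 array of replicate 3, the results for EDN1 and VEGFC are given with and without it. KRT8 (3048 to 6726) and KRT18 (5118 to 9853), keratins of simple epithelia, were present on all 64 arrays. The other 5 of 7 epithelial markers had medians of 9.3 (KRT19) to 218.6 (CDH1). EPCAM lay between 28.7 and 141.3 outside replicate 3 and between 109 and 248.8 in it. Outside replicate 3, KRT19 did not exceed 115.8 and KRT5 lay between 114.5 and 269.4. Of 7 endothelial markers, PECAM1 lay between 414 and 699 on all arrays and the other 6 had medians of 10.3 (CDH5) to 90.1, below the array medians. The 3 measured leukocyte markers had medians of 29.6 (PTPRC) to 93.8, and CD14 lay between 140.6 and 289.5 in replicate 3 and between 24.9 and 170.7 in the others. Of 7 fibroblast markers, COL1A1 (5431 to 10840) and PDGFRB (797.5 to 2539) were bright in every group, and the other 5 had medians of 73.9 (PDGFRA) to 141.5 (COL1A2). Summed over the fibroblast markers, most of it COL1A1, group means ran from 10430 to 11640 with both drugs, 10230 to 11130 with indacaterol, 10070 to 11240 with GSK 256066 and 10530 to 11690 with vehicle. For the 7 endothelial markers the sums were 825.5 to 863.6, 807.2 to 833.5, 831.2 to 908.5 and 772.6 to 893.9 in the same order of groups. No marker of these lists was called in both drugs against GSK 256066 or in GSK 256066 against vehicle by limma. The only marker call in any tested comparison was 1 epithelial marker, lower in vehicle at 18 h than at 1 h. There the differences of the 7 epithelial markers ran from -0.68 to 0.12.

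The DNA upstream of EDN1 and VEGFC is shown because these are the members that changed, and because cAMP acts on many genes through CREB, a factor that binds the cAMP response element TGACGTCA. Sequences are RefSeq promoters of GRCh38.p14, 250 bases up to the annotated start, in the direction of the gene. RefSeq lists 3 starts for EDN1. The window of start 2 (chr6:12289764-12290013, plus strand) holds TGACG, the opening letters of the element, 142 bases before the start. That of start 3 (chr6:12290111-12290360, plus strand) holds a TATA box, TATAAA, 31 bases before the start. The VEGFC window (chr4:176792923-176793172, minus strand) holds TGACG on the opposite strand, read as CGTCA, 8 bases before the start. Capitals mark these letters.
EDN1 start 2: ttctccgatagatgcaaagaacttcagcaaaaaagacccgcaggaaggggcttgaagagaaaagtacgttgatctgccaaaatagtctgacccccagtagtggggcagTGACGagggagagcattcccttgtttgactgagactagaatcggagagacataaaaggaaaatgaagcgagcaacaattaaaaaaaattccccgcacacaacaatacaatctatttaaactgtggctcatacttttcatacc
EDN1 start 3: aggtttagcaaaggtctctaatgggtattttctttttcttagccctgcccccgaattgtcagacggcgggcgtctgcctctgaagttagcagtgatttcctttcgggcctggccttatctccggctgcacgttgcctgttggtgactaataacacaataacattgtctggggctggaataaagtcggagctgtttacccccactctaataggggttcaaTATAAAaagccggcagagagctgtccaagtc
VEGFC: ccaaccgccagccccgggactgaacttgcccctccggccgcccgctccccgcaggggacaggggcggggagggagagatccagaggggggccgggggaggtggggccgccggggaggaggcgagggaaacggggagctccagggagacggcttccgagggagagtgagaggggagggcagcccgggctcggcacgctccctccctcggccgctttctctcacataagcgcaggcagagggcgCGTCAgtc
Searched on both strands, TGACG was found in 21.2% of 35116 promoter windows of this length, the whole element TGACGTCA, which contains TGACG, in 1.65%, the AP-1 letters TGANTCA in 6.57% and TATAAA in 10.7%. No window of a member held TGACGTCA or TGANTCA. The window of EDN1 start 1 held neither TGACG nor TATAAA, and that of EDN1 start 3 held no TGACG. Which start these cells use was not examined. Variants that differ from these letters by a base were not searched for, so their presence is not excluded. The window of PGF start 1 also holds TGACG, at 148 and at 141 bases before the start, and no PGF probe set was called in the tests that follow.

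EDN1 was the member with the greatest response: in cells that also received GSK 256066, indacaterol raised it nearly 3-fold at 1 and 2 h, and no difference was detected at 18 h. The probe set with the highest signal, 222802_at, gave 3662, 4256, 5627 and 5351 intensity units with both drugs at 1 h, against 1626, 1534, 1859 and 1819 with GSK 256066. Every array with both drugs was above every array with GSK 256066, and the lowest of them, replicate 1, was still far above the highest of the others. At 2 h the signals were 3495, 2707, 2866 and 2897 with both drugs, against 1236, 986, 844 and 1122 with GSK 256066. Both groups were lower than at 1 h, and they were again fully apart. At 6 h the arrays with both drugs gave 1361, 1401, 1268 and 1145, against 1065, 1199, 619 and 1025 with GSK 256066, and the groups met at 1 array each. At 18 h the values were 690.4, 948, 769 and 879 with both drugs, against 804, 983, 610.2 and 892 with GSK 256066, and they overlapped throughout.

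In a limma fit across all probe sets, both drugs minus GSK 256066 came to 1.44 ± 0.18 (SE) on the log2(signal + 16) scale at 1 h, 2.72-fold (adjusted p = 1.32e-06), and to 1.51 ± 0.18 at 2 h, 2.84-fold (adjusted p = 4.01e-07). At 6 h it was 0.44 (95% interval 0.07 to 0.80, adjusted p = 0.663) and at 18 h 0.01 (-0.36 to 0.38, adjusted p = 1). These arrays are not those of the contrast that led to the choice of EDN1, but the fit took its spread from all 64 arrays. The same replicate numbers recur in both contrasts. The calls at 1 and 2 h held without each replicate in turn, and without replicate 3 the differences were 1.39 and 1.43. The difference at 6 h rested in part on replicate 3, in which it was 1.02 against 0.16 to 0.35 in the other numbers, and was 0.24 without it. An F-test over the 4 times found that the effect itself differed between times (adjusted p = 0.000501), the effect at 6 h minus that at 1 h being -1.01 and at 18 h minus 1 h -1.43. That call was lost without replicate 1 (adjusted p = 0.137), 2 (0.114) or 4 (0.18), and was 1.43e-06 without replicate 3. In these bulk cultures, more cells with EDN1 transcripts and more transcript per cell cannot be told apart.

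**Figure D1:**
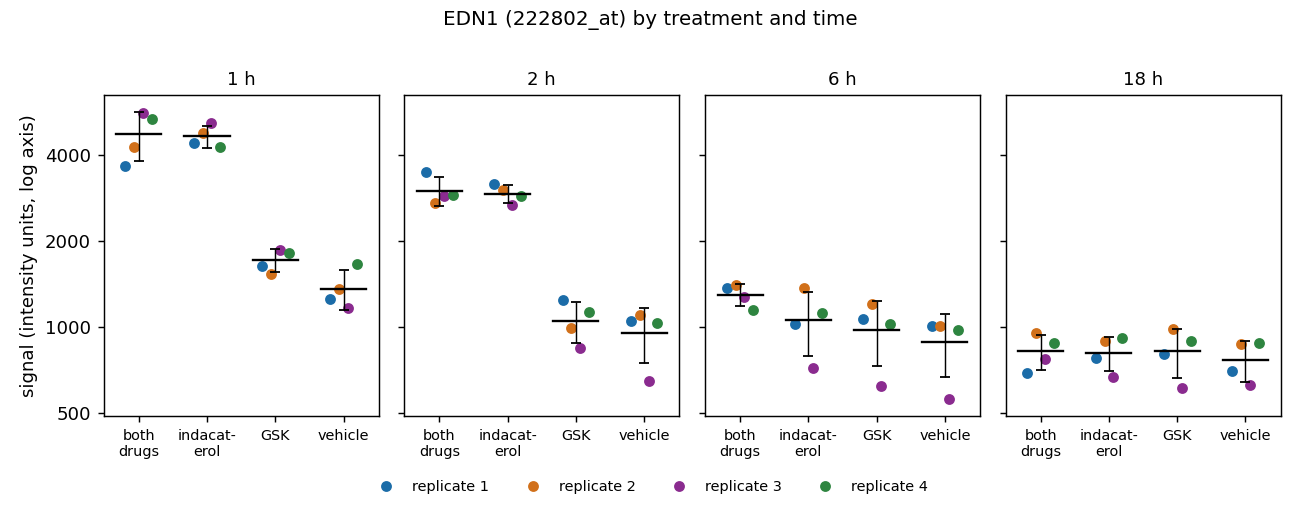
Signal of EDN1 (222802_at, intensity units, log axis) on all 64 arrays, by treatment within each time; points are arrays coloured by replicate number, lines are means and bars the SD of 4 arrays. At 1 and 2 h the arrays with both drugs or indacaterol lie above all arrays with GSK 256066 or vehicle, and at 18 h all 4 groups overlap.

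The other EDN1 probe sets differed in how far they moved. Over the 16 group means, 218995_s_at followed 222802_at with r = 0.999 and 1564630_at with r = 0.89, points that share their arrays. On 218995_s_at, both drugs gave 1864 ± 403 at 1 h, against 636 ± 50.1 with GSK 256066 (SD, n = 4), and 1119 ± 101 against 373 ± 62.4 at 2 h. The differences were 1.51 (adjusted p = 6.55e-07) and 1.56 (3.29e-07), close to those of 222802_at, with 0.52 at 6 h (0.453) and 0.10 at 18 h (1, limma). Without replicate 3 the differences on this probe set were 1.42, 1.47, 0.36 and -0.06 at the 4 times, with the same calls. On 1564630_at the changes were smaller: signals at 2 h were 611, 590.0, 719 and 597 with both drugs, against 420.0, 358, 496 and 478 with GSK 256066, and the groups did not overlap. That difference of 0.51 was called by limma (adjusted p = 0.0123), but not without replicate 1 (0.107), 2 (0.291) or 4 (0.0513), nor after quantile normalization (0.104), and its adjusted p ranged from 8.1e-05 to 0.291 over 8 alternatives. At 1 h it was 0.42 (adjusted p = 0.434). Where the probes of each set lie in the transcript was not examined.

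VEGFC, the lymphatic growth factor, rose with indacaterol at 2 h in cells that also received GSK 256066, by 1.63-fold, with no detectable difference at 1 h. Its only probe set, 209946_at, gave 326, 377, 293 and 438 intensity units with both drugs at 1 h, against 336, 381, 278 and 422 with GSK 256066. Number by number these were nearly the same signals. At 2 h both drugs gave 468, 539.6, 498 and 508.5, against 308, 254, 266 and 399 with GSK 256066. All arrays with both drugs were now above all with GSK 256066, whose replicate 4 came nearest. At 6 h the arrays gave 443, 462, 379.5 and 497.5 with both drugs, against 320.2, 401, 293 and 380.2 with GSK 256066, overlapping through replicate 3 of the pair of drugs. At 18 h they gave 307, 458, 355.5 and 478.5 with both drugs, against 400.1, 558, 337 and 460.1 with GSK 256066, and the groups overlapped.

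The limma difference for VEGFC was 0.02 at 1 h (95% interval -0.29 to 0.33, adjusted p = 1) and 0.71 ± 0.16 (SE) at 2 h, called at an adjusted p of 0.00732. The call was lost without replicate 1 (difference 0.75 ± 0.20, SE, adjusted p = 0.102) or 2 (0.59 ± 0.19, adjusted p = 0.313). It held without replicate 3 (0.65, adjusted p = 0.00736). At 2 h the numbers met the pairing rule given with the processing, which cannot show by itself that they pair arrays. All 4 same-numbered differences were positive there (0.34 to 1.04). With replicate number as a block the SE was 0.087 and the adjusted p 4.32e-08. Over all 9 alternatives the difference stayed between 0.59 and 0.83 and its adjusted p between 4.32e-08 and 0.313. At 6 h it was 0.34 (0.03 to 0.66, adjusted p = 0.777). There the numbers met that rule too, and all 4 same-numbered differences were positive (0.20 to 0.45). With replicate number as a block the adjusted p was 0.0154, within 0.0154 to 1 over the alternatives. At 18 h it was -0.13 (adjusted p = 1). A change of the VEGFC effect over the 4 times was not called in the fit without a block (F-test, adjusted p = 0.469, and 0.159 without replicate 3).

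**Figure D2:**
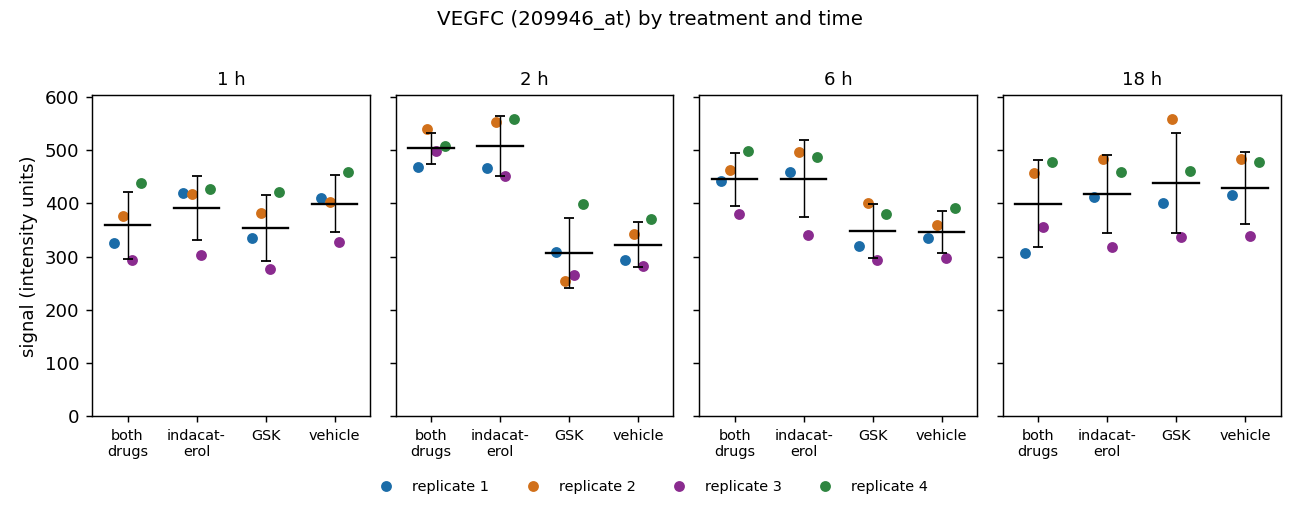
Signal of VEGFC (209946_at, intensity units) on all 64 arrays, by treatment within each time; points are arrays coloured by replicate number, lines are means and bars the SD of 4 arrays. At 2 h the 4 arrays with both drugs (468 to 539.6) lie above the 4 with GSK 256066 (254 to 399).

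Of the 9 member probe sets, limma called 2 at 1 h in both drugs against GSK 256066, both of EDN1 and both higher, where it called 0.105% of all 41091. At 2 h it called 4, the 3 of EDN1 and that of VEGFC, all higher, against 0.9% of all. At 6 h it called 0 of 9 (3 at an unadjusted p under 0.05), against 0.329% of all, and at 18 h 0 of 9 (0 unadjusted), against 0% of all (847 unadjusted). The F-test over times called 2 of 9, both of EDN1, against 0.0779% of all. The 3 probe sets of EDN1 report 1 gene and are not separate findings.

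Indacaterol alone, the contrast behind the choice of members, gave EDN1 signals of 4399, 4776, 5159 and 4251 at 1 h, against 1254, 1360, 1162 and 1661 with vehicle. At 2 h the arrays gave 3158, 3002, 2668 and 2866 with indacaterol, against 1046, 1098, 643 and 1027 with vehicle. The groups were fully apart at both times. At 6 h the signals were 1023, 1367, 718 and 1119 with indacaterol, against 1006, 1004, 557.5 and 972.5 with vehicle, and at 18 h 774, 888, 667 and 913, against 697, 870.4, 623 and 875. Both later times overlapped, and replicate 3 was the lowest array of each group. As a description, the differences in log2(signal + 16) were 1.77, 1.63, 0.26 and 0.08 at 1, 2, 6 and 18 h (SE 0.18 at each), and 1.65, 1.5, 0.22 and 0.08 without replicate 3. Limma called 0.187%, 1.17%, 0.238% and 0% of all probe sets in this contrast at those times, from which nothing is read about the members.

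VEGFC with indacaterol at 2 h gave 466, 553.5, 451 and 558, against 293, 343, 281.5 and 371 with vehicle, with no overlap. Its differences were -0.03, 0.63, 0.35 and -0.04 at 1, 2, 6 and 18 h (SE 0.16), and -0.01, 0.63, 0.40 and -0.02 without replicate 3. For both drugs minus vehicle, which uses the same vehicle arrays, they were -0.16, 0.63, 0.35 and -0.11, and for EDN1 1.78, 1.66, 0.58 and 0.10. Without replicate 3 these became -0.16, 0.57, 0.36 and -0.16 for VEGFC and 1.62, 1.5, 0.38 and 0.04 for EDN1, so that the EDN1 value at 6 h rested in part on that number. Both series are listed side by side as values, since they share their vehicle arrays.

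GSK 256066 alone did not move any member past the test. EDN1 averaged 1709 ± 155 with GSK 256066 at 1 h, against 1359 ± 217 with vehicle (SD, n = 4), and the groups overlapped. The limma difference was 0.34 at 1 h (95% interval -0.03 to 0.70, adjusted p = 0.758), with 0.15, 0.14 and 0.09 at 2, 6 and 18 h. Without replicate 3 it was 0.22, 0.07, 0.14 and 0.14 at the 4 times. At 1 h the numbers met the pairing rule given with the processing, and all 4 same-numbered differences were positive (0.13 to 0.67). With replicate number as a block limma called no member probe set there (lowest adjusted p = 0.462, 3 at an unadjusted p under 0.05). With all arrays, intervals at the later times reached 0.52, 0.51 and 0.46, so a rise of that size was not excluded by these arrays. VEGFC differed by -0.17, -0.08, 0.01 and 0.02 at the 4 times, with intervals between -0.49 and 0.34, and by -0.16, -0.08, 0.02 and 0.03 without replicate 3. Limma called 0 of 9 member probe sets at each time (unadjusted 0, 1, 0 and 0), against 0.00243%, 0%, 0% and 0% of all (unadjusted 2917, 2052, 785 and 1471 of 41091).

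Adding GSK 256066 to indacaterol moved EDN1 by less than the spread of the arrays at 1 and 2 h. Both drugs gave 4724 ± 923 at 1 h, against 4646 ± 407 with indacaterol (SD, n = 4), and 2991 ± 346 against 2923 ± 208 at 2 h. The limma difference had a 95% interval of -0.36 to 0.37 at 1 h, of -0.34 to 0.40 at 2 h, of -0.05 to 0.69 at 6 h and of -0.35 to 0.39 at 18 h. At 6 h the mean was 1294 ± 114 with both drugs, against 1057 ± 268 with indacaterol, a difference of 0.32 (adjusted p = 1). Replicate 3 made much of it: the same-numbered difference was 0.81 there and 0.03 to 0.41 in the other numbers, and without it the difference at 6 h was 0.16, with -0.03, 0.00 and -0.04 at 1, 2 and 18 h. For VEGFC the differences were -0.12, -0.01, 0.01 and -0.07, and -0.15, -0.05, -0.04 and -0.14 without replicate 3. No member probe set was called at any time (0 of 9, unadjusted 1, 0, 0 and 0), nor was any of all 41091 (0%, unadjusted 599, 651, 659 and 658).

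**Figure D3:**
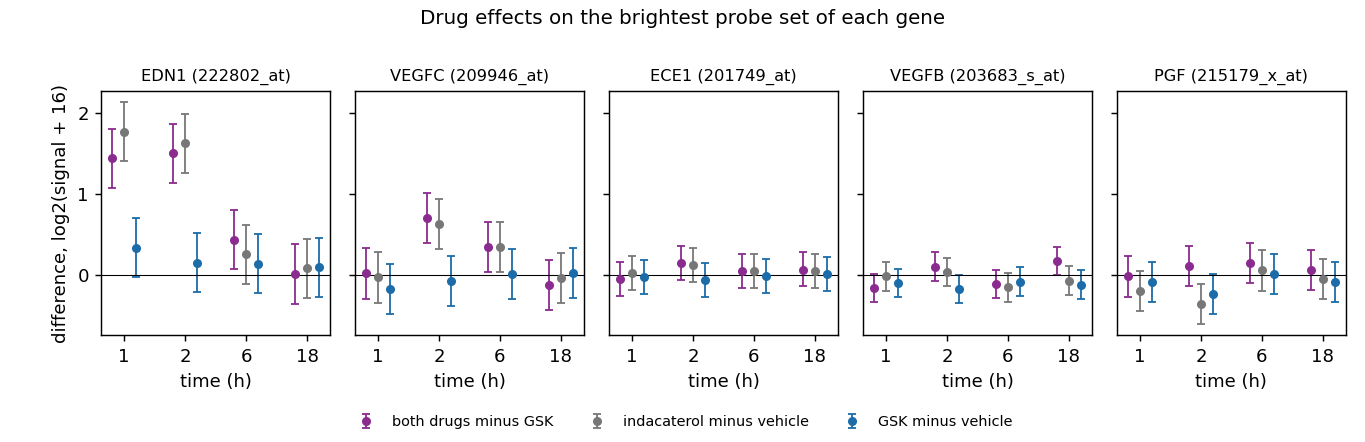
Differences in log2(signal + 16) for the brightest probe set of each of 5 genes at 1, 2, 6 and 18 h; points are limma estimates and bars their 95% intervals. Both drugs minus GSK 256066 (purple) is 1.44 and 1.51 for EDN1 at 1 and 2 h and 0.71 for VEGFC at 2 h; indacaterol minus vehicle (grey) is shown as a description, and GSK 256066 minus vehicle (blue) has an interval that includes 0 at every point but 2 h for VEGFB.

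In vehicle alone, EDN1 fell over the culture period. Its 18 h arrays of 623 to 875 lay below the 1 h arrays of 1162 to 1661, and the limma difference, 18 h minus 1 h, was -0.82 ± 0.18 (SE), called at an adjusted p of 0.00826. On 218995_s_at it was -0.77 (adjusted p = 0.0165), and on 1564630_at -0.26 (adjusted p = 0.423). Limma called these 2 of 9 member probe sets, both lower, where it called 1.47% of all. Both calls were lost without replicate 1 (adjusted p = 0.154 and 0.193), 2 (0.0675 and 0.102) or 4 (0.169 and 0.27), and held without replicate 3 (0.000387 and 0.000708). At 2 h minus 1 h the difference of 222802_at was -0.52 (adjusted p = 0.192) and at 6 h minus 1 h -0.64 (adjusted p = 0.0707), and without replicate 3 -0.42 (0.141) and -0.50 (0.0561). Of all probe sets 0.119% and 0.954% were called at these times, and of members 0 of 9 (2 unadjusted at each). At 6 h the numbers met the pairing rule. With replicate number as a block the adjusted p was 0.00668 for 222802_at and 0.0171 for 218995_s_at. Without dim probe sets it was 0.048 for 222802_at. Over all alternatives that adjusted p ranged from 0.00668 to 0.365. VEGFC differed by -0.30, -0.20 and 0.09 at 2, 6 and 18 h against 1 h, and by -0.33, -0.22 and 0.11 without replicate 3, with no call.

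ECE1, the endothelin-converting enzyme that makes the active peptide, was not called in any tested comparison. Its brighter probe set, 201749_at, lay between 909 and 1389 on all 64 arrays, with 1146 ± 165 with both drugs at 2 h, against 1028 ± 74.4 with GSK 256066 (SD, n = 4). The limma differences of both drugs minus GSK 256066 lay between -0.05 and 0.15 over the 4 times (adjusted p = 0.754 to 1). Its other probe set, 201750_s_at, lay between 146.5 and 272.6 and differed by -0.03 to 0.12. The pair of sets followed each other with r = 0.62 over the group means.

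VEGFB, a ligand of FLT1, gave no call in any tested comparison either. Its probe set 203683_s_at had 359 ± 18.4 with both drugs at 1 h, against 430.0 ± 58.9 with indacaterol, and every array with both drugs was lower. At 18 h this order was the other way round, with 465 ± 17.8 with both drugs, against 425 ± 23.8 with indacaterol and 410.1 ± 18.6 with GSK 256066, and no overlap with either. The limma differences, -0.24 and 0.12 against indacaterol and 0.17 against GSK 256066, all had an adjusted p of 1.

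PGF, placental growth factor, was read by a pair of probe sets that did not follow each other (r = 0.178 over the 16 group means). The brighter, 215179_x_at, has an x in its name because its probes can also match other transcripts, and lay between 787 and 1366 on all arrays. At 2 h it gave 942, 913, 1048 and 787 with indacaterol, against 1169, 1155, 1366 and 1071 with vehicle, a difference of -0.36 ± 0.12 (SE) with no overlap, given as a description. With both drugs it gave 1108, 1085, 1161 and 986 at 2 h, against 1160, 928.5, 975 and 957 with GSK 256066, and the groups overlapped (0.11, adjusted p = 0.867, limma). Whether these contrasts differ from each other was not tested.

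The other PGF probe set, 209652_s_at, separated the arrays by replicate number and not by treatment. Signals ran from 128.5 to 232.3 in replicate 1, 61.6 to 111.2 in replicate 2, 171.2 to 362.7 in replicate 3 and 54.8 to 102.6 in replicate 4, with medians of 195.9, 91.8, 266.5 and 72.1 over 16 arrays each. Replicates 1 and 3 lay above replicates 2 and 4 in every treatment and time. The SE of a difference was 0.55, against 0.12 on 215179_x_at, and the differences of both drugs minus GSK 256066 lay between -0.17 and 0.09 (adjusted p = 0.997 to 1). With replicate number as a block the SE was 0.15 and no difference was called either (adjusted p = 0.786 to 1). At 2 h, where the numbers met the pairing rule, the same-numbered differences were -0.31, 0.32, -0.03 and 0.10.

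**Figure D4:**
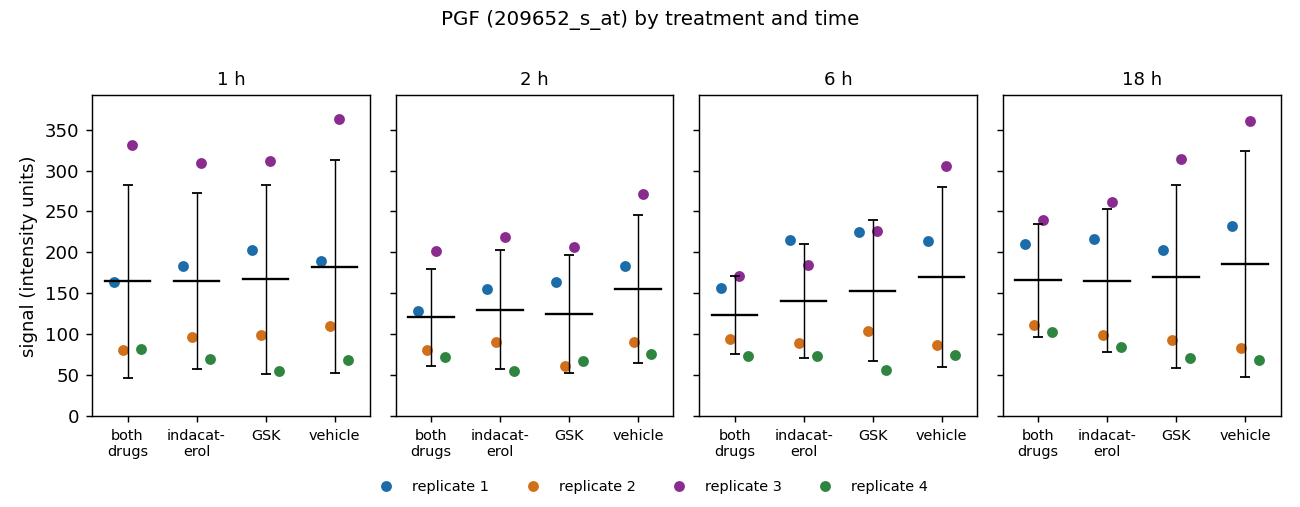
Signal of PGF (209652_s_at, intensity units) on all 64 arrays, by treatment within each time; points are arrays coloured by replicate number, lines are means and bars the SD of 4 arrays. In all 16 groups replicates 1 and 3 (128.5 to 362.7) lie above replicates 2 and 4 (54.8 to 111.2).

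Other genes of these pathways gave no call in both drugs against GSK 256066, where the share called over all probe sets was itself 0.105%, 0.9%, 0.329% and 0% at 1, 2, 6 and 18 h. At those shares a count of 0 in lists of 7 to 13 genes is near the background and is no result about the pathways. Of the endothelin system all 7 listed genes were measured (the peptides EDN2 and EDN3, the receptor EDNRB, and the processing or degrading proteases ECE2, MME, KEL and FURIN). Limma called 0 of 7 in both drugs against GSK 256066 at each time (unadjusted 0, 1, 2 and 1), with medians of 0.07, 0.26, 0.17 and 0.07 at 1, 2, 6 and 18 h, beside -0.03, 0.06, 0.00 and 0.03 over all probe sets. Of 11 receptors, coreceptors and maturation factors of VEGF ligands 10 were measured, and 0 were called (unadjusted 0, 0, 1 and 0), with medians of 0.01, 0.11, 0.06 and 0.00. FLT4, the receptor of VEGFC, and the maturation factors CCBE1 and ADAMTS3 were among them. Mean signals of FLT4 (66.1) and ADAMTS3 (96.9) lay below every array median, and that of CCBE1 was 2047. KDR (51.9), PCSK5 (57.1), EDN3 (46.3) and EDNRB (88.6) were dim too. The scale used understates changes of such genes. Of 13 other vasoactive and angiogenic factors 0 were called (unadjusted 0, 2, 1 and 0), with medians of -0.01, 0.08, 0.00 and -0.04. The only call in any tested comparison was PDGFB, a platelet-derived growth factor chain, lower in vehicle at 18 h than at 1 h (difference -0.74 ± 0.17, SE, adjusted p = 0.0112). Indacaterol against vehicle was not tested for the lists. There EDN2, another endothelin, had the greatest difference of the listed genes at 1 h, 0.83 with an SE of 0.45. The lists were drawn up with earlier results of these data known.

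The genes whose 16 group means were most like those of EDN1, among 530 genes whose means varied by an SD of at least 0.3, were IL6 (Pearson r = 0.993), PLK2 (0.991), ERRFI1 (0.987), CXCL2 (0.977) and TRIB1 (0.976). IL6 and CXCL2 encode secreted inflammatory mediators, PLK2 a kinase, and ERRFI1 and TRIB1 an inhibitor of the EGF receptor and a pseudokinase. For VEGFC, among 531 genes, they were TBX3 (0.89), LBH (0.87), IL15 (0.87), DLGAP1-AS1 (0.84) and BCL7A (0.83). TBX3 is a T-box transcription factor and IL15 a cytokine. All these points come from the same arrays, and the indacaterol groups that chose EDN1 and VEGFC are among them.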

How the data were processed

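Gene expression was measured on Affymetrix arrays in 64 samples. The deposited values are probe-set intensities on a linear scale, scaled between arrays by the authors. Per the submitters' processing notes the tools were PLIER and Transcriptome Analysis Console 4, whose settings are not given in the sources used here. The probe annotation came with the array platform, and its symbols were updated through gene IDs. Of the probe sets, those with 1 gene symbol (41091) were used as log2(signal + 16), which understates changes of dim genes. All 64 arrays entered 1 limma fit (3.58.1, R 4.3.3) of 16 group means, which left 48 residual degrees of freedom. Contrasts were tested two-sided, with Benjamini-Hochberg adjustment over all 41091 and calls at an adjusted p under 0.05. The script was tested on simulated data. Alternatives were a pseudocount of 64, a mean signal of at least 100, 1 probe set a gene, quantile normalization, replicate number as a block, and leaving out each replicate number.

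The members, gene lists and tests were chosen with earlier results of these data known. Named were all member probe sets, list genes called in a tested comparison, and the 5 genes most like EDN1 or VEGFC over the group means. Replicate numbers recur in every group without a stated meaning. They were taken to pair arrays where same-numbered deviations from the group means correlated above 0.1 for all 4 numbers. Arrays of different numbers were not compared, and every group mean includes the outlying replicate 3. The rule therefore cannot show by itself that the numbers pair arrays, and the block is given as an alternative only. The rule was met for both drugs against GSK 256066 at 2, 6 and 18 h (lowest r 0.199, 0.11 and 0.216) but not at 1 h (-0.18). In vehicle it was met at 6 and 18 h (0.478 and 0.173) but not at 2 h (0.0543). For GSK 256066 against vehicle it was met at 1, 6 and 18 h (0.399, 0.315 and 0.343) but not at 2 h (-0.0916). No 2 arrays were identical (highest r 0.9969). The number of arrays limits the precision.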

Additional observations from a re-analysis of the deposited data

Results flagged for a closer look

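Among 144 sets of 4 arrays (9 probe sets in 16 groups), 13 held 1 array far from the other 3 by Dixon's criterion, which chance meets in about 1 of 20 sets, here given as values. Replicate 3 was the one that stood off in 8 of them. EDN1 (222802_at) was low in vehicle replicate 3 at 2 h (643, the others 1027 to 1098) and at 6 h (557.5, the others 972.5 to 1006). On 1564630_at it was high with both drugs at 2 h in replicate 3 (719, the others 590.0 to 611), and on 218995_s_at with indacaterol at 2 h in replicate 1 (1230, the others 1067 to 1079). ECE1 (201750_s_at) was low in replicate 3 at 18 h with both drugs (176.2, the others 217 to 223) and with indacaterol (166.5, the others 199.9 to 205), as was 201749_at with indacaterol at 18 h (909, the others 1199 to 1235). ECE1 was high in replicate 2 with both drugs at 2 h on 201750_s_at (257, the others 181.9 to 183.9) and in replicate 4 with GSK 256066 at 2 h on 201749_at (1139, the others 977 to 1002). VEGFC was low with indacaterol at 1 h in replicate 3 (302.6, the others 417 to 427). PGF (215179_x_at) was low with indacaterol at 6 h in replicate 3 (889.5, the others 1067 to 1091) and with vehicle at 18 h in replicate 2 (907, the others 1139 to 1153). VEGFB was low with GSK 256066 at 2 h in replicate 2 (267.1, the others 370.3 to 382).

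The effect of both drugs against GSK 256066 differed between the 4 times for EDN1, by limma's F-test on 222802_at (adjusted p = 0.000501) and on 218995_s_at (adjusted p = 0.00113). On both it was near 1.5 at 1 and 2 h and near 0 at 18 h. Both calls were lost without replicate 1, 2 or 4, with adjusted p up to 0.18 and 0.23.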

How the results depend on the processing

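Of 68 alternative values of called member results, 56 stayed called with the same sign, and no called result changed sign under any alternative run. Of all 1155 alternative values of member probe sets in 2-group comparisons, called or not, 90 were uncalled under both settings and had another sign. No direction is read from uncalled values. The counts over all probe sets moved far more than the EDN1 calls at 1 and 2 h. For both drugs against GSK 256066, counts at 1, 2, 6 and 18 h were 43, 370, 135 and 0. With 1 probe set a gene (fewer tests) they were 28, 183 and 71 at 1, 2 and 6 h, with replicate number as a block 153, 1420, 981 and 19, with quantile normalization 259 at 6 h, and with a pseudocount of 64 they came to 1 at 18 h. Leaving out 1 number gave 8 to 41, 91 to 437, 49 to 150 and 0. The F-test over times called 32, and 51 with the pseudocount of 64, 53 without dim probe sets, 15 with 1 probe set a gene, 57 with quantile normalization, 478 with the block and 8 to 112 with 1 number left out. GSK 256066 at 1 h called 1, and 0 with the pseudocount of 64, without dim probe sets or with quantile normalization, and 0 to 2 with 1 number left out; at 2 h it called 0, and 1 with the block, and 0 to 1 with 1 number left out. Vehicle over time called 49, 392 and 603 at 2, 6 and 18 h. It called 104 at 2 h without dim probe sets, 240 and 315 at 6 and 18 h with 1 probe set a gene, 1037 at 18 h with quantile normalization, 1363, 2334 and 2737 with the block, and 5 to 376, 73 to 337 and 144 to 805 with 1 number left out. Quantile normalization moved the share of higher calls from 93.2% to 69% at 2 h and from 81.5% to 66.8% at 6 h for both drugs against GSK 256066, and from 34.7% to 47.6% at 2 h and from 12.5% to 31.1% at 6 h in vehicle. Leaving out replicate 4 gave another split in vehicle at 2 h, where 85.1% of the 376 calls were higher. The share was 20% of only 5 calls without replicate 1 or 2, and 24.5% of 53 calls without replicate 3. For both drugs against GSK 256066, leaving out replicate 2 gave 79.1% at 2 h and 93.2% at 6 h, and the block gave 68.5% at 6 h. The cause of these shifts was not tested.

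For VEGFC, both drugs against GSK 256066, leaving out 1 number gave 0.59 to 0.83 at 2 h (not called without replicate 1 or 2, called without 3 or 4) and 0.31 to 0.39 at 6 h, where the block gave 0.34 (adjusted p = 0.0154). Its F-test over times had an adjusted p of 2.51e-05 with the block and 0.159 to 1 with 1 number left out, and that of EDN1 1.43e-06 to 0.18. Replicate numbers did not meet the pairing rule for both drugs against GSK 256066 at 1 h or in vehicle at 2 h. The block still called EDN1 on 1564630_at with both drugs at 1 h (0.42, adjusted p = 0.00834). In vehicle at 2 h the block called EDN1 on 222802_at (-0.52, 0.0462) and 218995_s_at (-0.56, 0.0408) and VEGFC (-0.30, 0.0439). It changed no other member call beside those in the results. The spread between numbers limits PGF on 209652_s_at in the fit without the block, and no detection calls were used.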
